A study of Mus musculus with 12 samples.

Results

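Glutathione S-transferases join reduced glutathione to electrophiles, so that the product can be exported from the cell and turned into a mercapturate. Acetaminophen (APAP) is oxidized in hepatocytes to a reactive quinone imine that is removed in this way, and loss of glutathione precedes APAP liver injury. The cytosolic enzymes fall into classes by sequence, among them alpha, mu, pi and theta, and several alpha and mu genes are known targets of the stress-responsive transcription factor NRF2. Here, 10 genes of these 4 classes were taken by gene symbol from a liver RNA-seq table of 45777 genes, and all 10 had a row in it. They were *Gsta1*, *Gsta2*, *Gsta3* and *Gsta4* (alpha), *Gstm1*, *Gstm2* and *Gstm3* (mu), *Gstp1* (pi), and *Gstt1* and *Gstt3* (theta). The rule uses the gene symbol and no measured value.

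The livers came from 12 male C57BL/6 mice, 3 in each of 4 groups, which the labels give as 10-12 weeks of age and the study's methods as 8 to 12. WT mice received vehicle or APAP, and mice labelled as *Gna12* knockouts (Gα12-/-, here the KO label) received the same. *Gna12* encodes the α subunit of a heterotrimeric G protein. APAP was given once at 300 mg/kg body weight by intraperitoneal injection, and livers were removed after 6 h. By the study's methods mice went without food overnight before APAP, and knockouts and age-matched WT littermates were sampled alike. Whether vehicle mice were fasted too is not stated separately. Which exons the knockout lacks is not given in the sources used here. The study typed knockouts and WT littermates by PCR of tail DNA and assayed *Gna12* in their livers by qRT-PCR. Whether those were the sequenced mice is not stated. Total counts ranged from 49737950 to 69566079 per library. *Gna12* counts ranged from 1659 to 3550 in WT vehicle, from 1193 to 4373 in WT APAP, from 2472 to 4003 in KO vehicle and from 2489 to 3248 in KO APAP, so they were not lower under the KO label, and genotype is given below only as the label. The tissue label was checked on hepatocyte markers, whose summed level was 66400 to 134300 CPM (counts scaled to library size) in every liver for 7 of 8 listed genes. WT APAP 1 stood apart: its 8 erythroid markers summed to 17090 CPM against 252 to 750 CPM in the other 11 livers, and its 8 neutrophil markers to 128.5 CPM against 1.14 to 22.6 CPM. In whole tissue, fewer cells of a type and less RNA per cell cannot be told apart.

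Of the 10 transferase genes, *Gsta1* moved most after APAP, from almost silent to among the 5 highest. Across all 12 livers its fitted level was 47.4-fold higher after APAP, and *Gsta2*, of the same cluster on chromosome 9, was 2.11-fold higher. Both sizes depend on how reads shared with *Gm3776* and *Gm10639*, genes of like sequence, were divided, which is uncertain. *Gsta3* and *Gstt3* were called lower, with fitted levels of 0.644 and 0.618 of those with vehicle. These 2 calls were weaker: they were kept in 2 and 7 of 12 fits that left out 1 liver. Neither gene passed within WT or under the KO label alone. The other 6, including the abundant *Gstp1* and *Gstm1*, did not pass the test. None of the 10 passed in any comparison between the genotype labels.

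Levels were compared between genes in TPM, the deposited unit that is scaled by transcript length and to a common sum per library. *Gstp1*, the pi-class enzyme whose loss is known to protect mice from APAP, was the most abundant in every group, with a mean of 2209 TPM in WT vehicle, 3255 TPM in WT APAP, 2467 TPM in KO vehicle and 2715 TPM in KO APAP. Its range did not overlap that of the next gene in any group. *Gsta3* and *Gstm1*, the main alpha and mu transcripts, came next. With vehicle *Gsta3* averaged 899 TPM in WT and 775 TPM under the KO label, and *Gstm1* 706 TPM and 701 TPM, and the ranges of the pair overlapped in both. After APAP *Gstm1* was above *Gsta3*, at 818 TPM against 493 TPM in WT, where the ranges overlapped, and at 902 TPM against 662 TPM under the KO label, where they did not. *Gstt1*, a theta enzyme that acts on small halogenated compounds, was the fourth with vehicle, at 151 TPM and 148 TPM. The remaining 6 genes lay below 40 TPM on average with vehicle, and neighbours in that order mostly overlapped. *Gsta1* was the lowest of the 10 with vehicle, at 2.90 TPM in WT and 2.66 TPM under the KO label. After APAP it was the fifth in WT, at 101 TPM, and the fourth under the KO label, at 167 TPM, overlapping *Gstt1* in both.

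**Figure D1:**
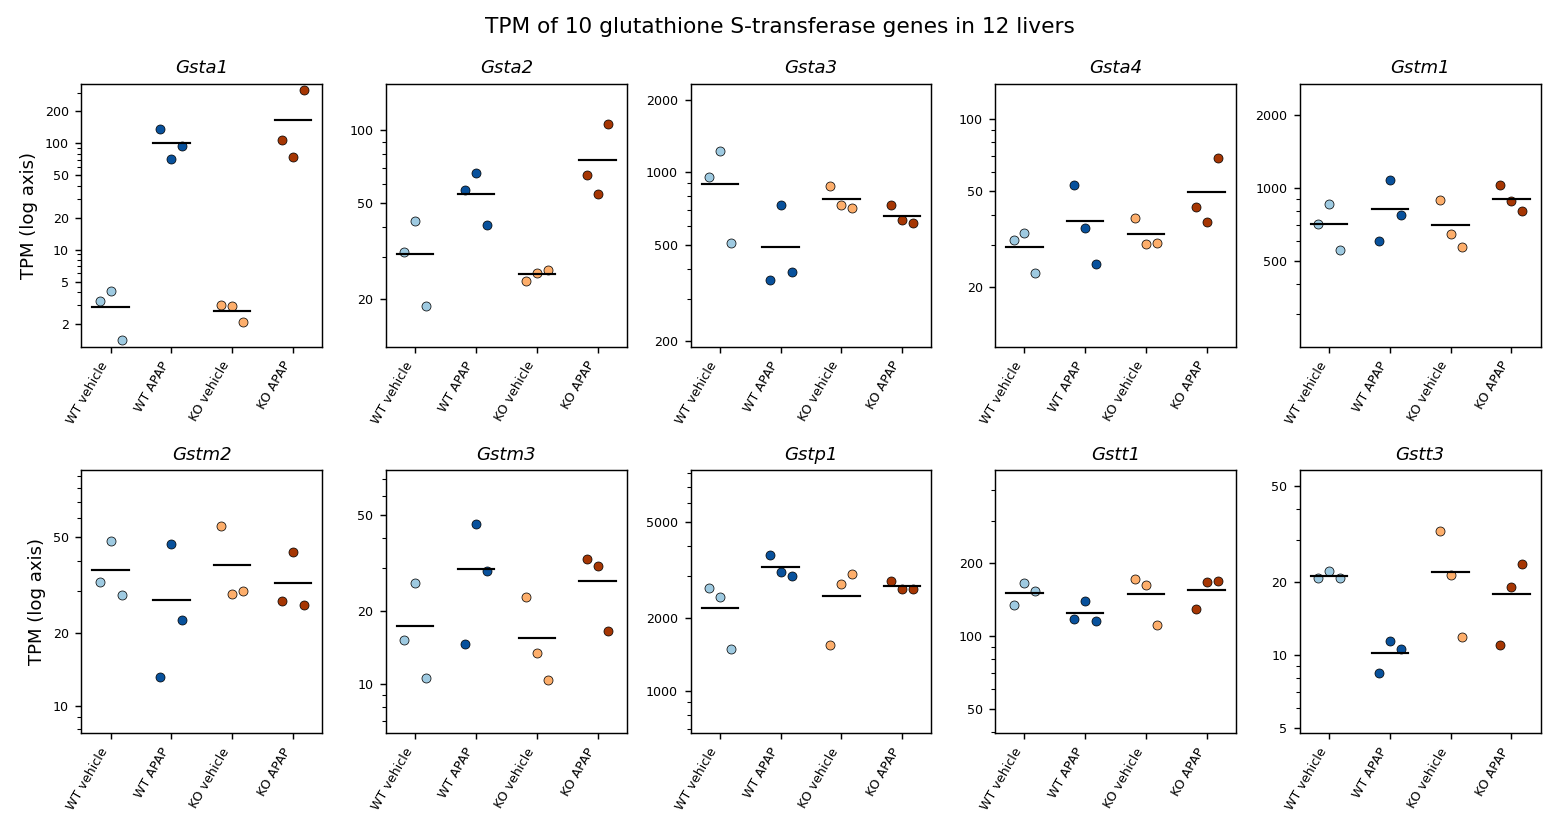
TPM (log axis) of each of the 10 genes in WT vehicle, WT APAP, KO vehicle and KO APAP livers, with 1 point per liver and a line at the mean of 3. The 6 *Gsta1* points after APAP sit between 71.8 and 317 TPM, all above the 6 vehicle points of 1.41 to 4.04 TPM, whereas the *Gstm1* and *Gstt1* points of all groups overlap.

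Summed over the 10 genes, the level ranged from 2819 to 4884 TPM with vehicle and from 4486 to 5340 TPM after APAP. The pi class, which here is *Gstp1* alone, held 53.8% ± 3.90 (SD, n = 3) of that sum in WT vehicle and 65.9% ± 7.35 in WT APAP. Under the KO label it held 57.3% ± 13.2 and 56.6% ± 1.16. The 4 alpha genes together held 22.9% ± 3.62 in WT vehicle, 13.7% ± 2.82 in WT APAP, 20.1% ± 4.90 in KO vehicle and 19.8% ± 2.89 in KO APAP. Within the alpha class, *Gsta1* went from 0.0678% ± 0.0166 of the sum over all 10 genes in WT vehicle to 2.05% ± 0.680 in WT APAP, while *Gsta3* went from 21.4% ± 3.55 to 9.83% ± 3.46. Thus even after APAP the gene with the largest fold change supplied a small share of the transferase mRNA in WT, and under the KO label it held 3.46% ± 2.73. The mu share was 18.8% ± 2.24 and 17.6% ± 4.73 in WT, and the theta share 4.45% ± 1.501 and 2.71% ± 0.182. These shares are descriptions and were not tested.

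**Figure D2:**
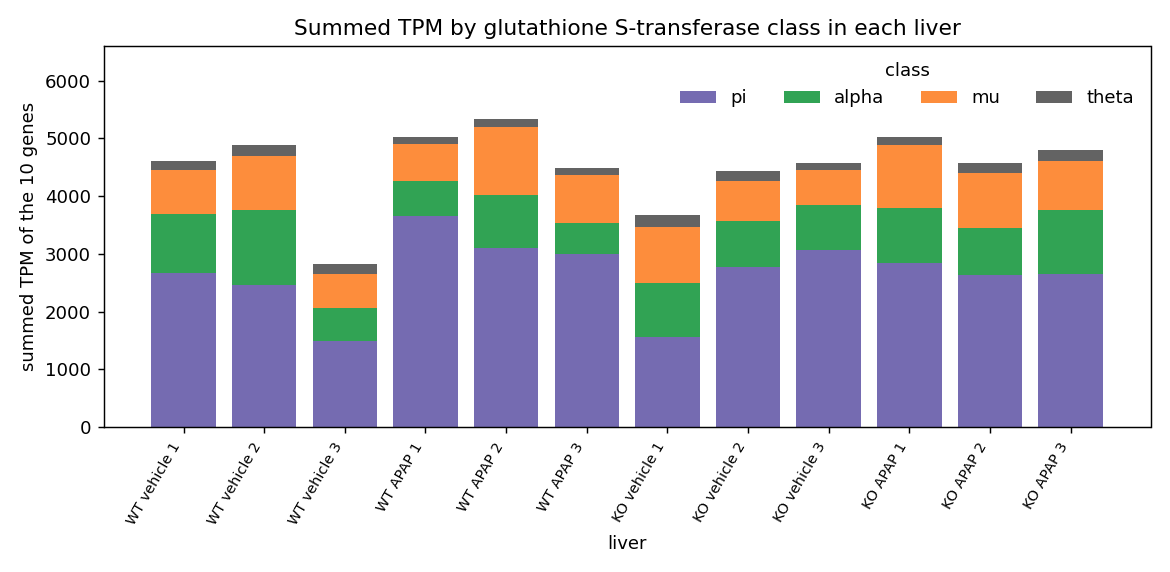
Summed TPM of the 10 genes in each liver, stacked by class. The pi class is the largest block in every liver, and the lowest totals are those of WT vehicle 3, at 2819 TPM, and KO vehicle 1, at 3676 TPM.

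*Gsta1* and *Gsta2* lie with *Gsta4* in an alpha-class cluster on chromosome 9, at chr9:78230669-78242683, chr9:78331018-78347192 and chr9:78191966-78209349 (GRCm38.p6). Between *Gsta1* and *Gsta2* lie *Gm3776*, at chr9:78257129-78269166, and *Gm10639*, at chr9:78289928-78305525, which are not among the 10 genes but share most of their sequence. *Gsta1* is on the plus strand and its coding sequence differs from that of *Gm3776* at 2 of 672 bases (99.7% identity). It is 97.5% identical to *Gsta2* and 96.9% to *Gm10639*, while *Gsta2* and *Gm10639* differ at 10 of 669 bases. Of all windows of 100 bases, the read length, in the *Gsta1* transcript, 81.8% occurred unchanged in the transcript of another of these genes, and the share was 35.0% for *Gsta2*. For the same reason *Gstp1* is uncertain, since 52.8% of its windows occurred in *Gstp2*, its neighbour on chromosome 19. The share was 1.68% for *Gstm1* and 1.65% for *Gstm3*, and 0 windows of *Gsta3*, *Gsta4*, *Gstm2*, *Gstt1* and *Gstt3* were shared among these 13 transcripts. A stretch of 60 coding bases (positions 449 to 508 of each coding sequence, in exon 6) shows how few bases tell the 4 alpha genes apart. It was chosen as the stretch within 1 exon where *Gsta1* and *Gsta2* differ most, capitals mark bases that differ from *Gsta1*, and the stretches are at chr9:78241561-78241620 (+), chr9:78268044-78268103 (+), chr9:78332125-78332184 (-) and chr9:78304406-78304465 (+) in the order given (GENCODE transcripts, GRCm38).
Gsta1: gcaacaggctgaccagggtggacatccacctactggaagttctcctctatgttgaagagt
Gm3776: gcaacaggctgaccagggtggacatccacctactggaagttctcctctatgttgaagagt
Gsta2: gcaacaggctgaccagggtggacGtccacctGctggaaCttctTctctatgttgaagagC
Gm10639: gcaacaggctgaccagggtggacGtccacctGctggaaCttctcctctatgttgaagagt
Over these bases *Gm3776* cannot be told from *Gsta1*, *Gsta2* differs at 5 bases and *Gm10639* at 3. How the authors' counting treated reads that match several of these genes is not given in the sources used here.

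*Gsta1* encodes an alpha-class enzyme known to be induced by oxidants and xenobiotics. In WT vehicle livers 1 to 3 it measured 3.26, 4.04 and 1.41 TPM, and in WT APAP livers 1 to 3 135.6, 71.8 and 94.96 TPM. In KO vehicle it measured 2.98, 2.92 and 2.06 TPM, and in KO APAP 108, 74.5 and 317 TPM. Every APAP liver lay far above every vehicle liver, and KO APAP 3 was the highest. The counts behind these levels were 40 to 114 per library with vehicle and 2189 to 10131 after APAP. The log2 fold change was 5.39 ± 0.626 (SE, adjusted p = 0.00953, edgeR's quasi-likelihood test) in WT, 5.77 ± 0.577 (adjusted p = 0.000737) under the KO label and 5.57 ± 0.467 (adjusted p = 7.53e-06) over all 12 livers. The WT call, on 6 livers, was lost without WT vehicle 1 (adjusted p = 0.0623) or WT vehicle 3 (adjusted p = 0.0520), with log2 fold changes of 5.40 and 5.04, whereas the call over all 12 livers was made in each of 12 fits that left out 1 liver. The size depended on the highest APAP livers: the fold in WT went from 41.9 to 25.8 without WT APAP 1, and under the KO label from 54.5 to 29.8 without KO APAP 3, with both calls kept.

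*Gm3776* and *Gm10639* rose as well. *Gm3776* went from 20 to 61 counts per library with vehicle to 2056 to 9160 after APAP, a log2 fold change of 6.23 ± 0.463 over all 12 livers (adjusted p = 3.20e-06). *Gm10639* went from 42 to 77 counts to 328 to 1317, a log2 fold change of 3.19 ± 0.375 (adjusted p = 9.78e-05). The ratios between these counts were not constant. For *Gm3776* to *Gsta1* the ratio was 0.544 ± 0.0495 (SD, n = 3) in WT vehicle and 0.921 ± 0.0740 in WT APAP, and 0.588 ± 0.0944 and 0.918 ± 0.0188 under the KO label. *Gm10639* to *Gsta1* moved the other way, from 0.809 ± 0.209 to 0.140 ± 0.0197 in WT and from 0.676 ± 0.0861 to 0.145 ± 0.0138 under the KO label. When the counts of *Gsta1* and *Gsta2* were summed before the fit, the log2 fold change over all 12 livers was 2.55 (adjusted p = 0.000264). When those of *Gm3776* and *Gm10639* were added to the pair, it was 3.17 (adjusted p = 8.96e-05). The rise of the group as a whole was therefore called, and its division among the 4 genes is uncertain.

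**Figure D3:**
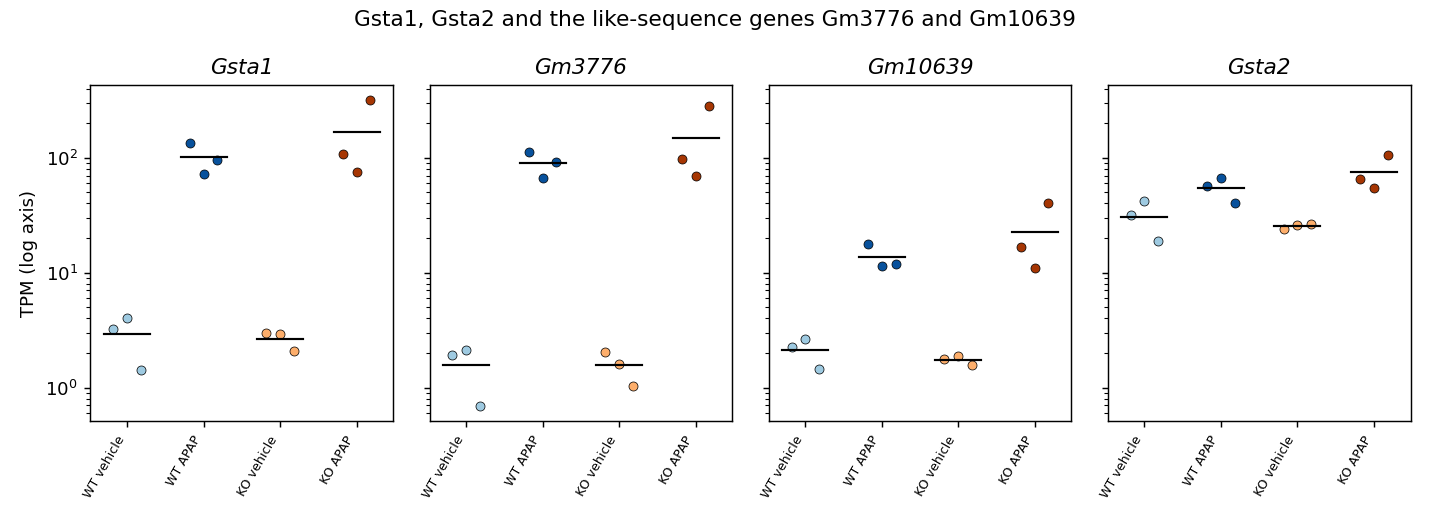
TPM (log axis) of *Gsta1*, *Gm3776*, *Gm10639* and *Gsta2* in the 4 groups, 1 point per liver and a line at the mean of 3. The KO APAP 3 liver is the highest for all 4 genes, and *Gsta2* starts at 18.7 to 42.1 TPM with vehicle, where the others lie at or below 4.04 TPM.

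*Gsta2*, the closest of the 10 genes to *Gsta1*, had a higher level with vehicle and a smaller rise. Its WT vehicle livers measured 31.5, 42.1 and 18.7 TPM and its WT APAP livers 56.8, 66.5 and 40.6 TPM. KO vehicle livers measured 23.8, 25.8 and 26.5 TPM and KO APAP livers 65.4, 54.5 and 106.6 TPM. The groups overlapped in WT, where WT APAP 3 lay below WT vehicle 2, and did not overlap under the KO label. The log2 fold change was 0.95 ± 0.378 in WT, which did not pass (adjusted p = 0.244), and 1.23 ± 0.266 under the KO label, which did (adjusted p = 0.0139). Over all 12 livers it was 1.08 ± 0.250 (adjusted p = 0.00723). The call under the KO label was lost without KO vehicle 2 (log2 fold change 1.22, adjusted p = 0.0583). With vehicle, *Gsta2* had 11.9 ± 2.22 counts for each *Gsta1* count in WT and 10.8 ± 2.68 under the KO label. After APAP it had 0.613 ± 0.295 and 0.573 ± 0.210. The order of the pair thus turned over in the deposited counts, whose division among the like genes is uncertain.

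The promoters of *Gsta1*, *Gm3776*, *Gm10639* and *Gsta2*, whose summed counts rose, are given because they show how far the likeness of the genes extends upstream of their starts. RefSeq windows of GRCm38.p6 from 250 bases before to 50 after the start were at hand for 9 of the 10 genes, all but *Gsta4*. Each was searched on both strands for the antioxidant response element core TGACNNNGC, the AP-1 site TGANTCA and the xenobiotic response element core GCGTG, which occur in 12.4%, 7.81% and 32.4% of all 32851 such windows. Each window was cut at its own annotated start and aligned over its full length. By that measure the *Gsta1* window is 90.7% identical to that of *Gm3776* (284 matches over 313 aligned positions), 88.6% to that of *Gm10639* and 74.0% to that of *Gsta2*. Bases that overhang at the ends count as differences, so these values understate the likeness of the bases that line up. The sequences run from 250 bases before to 30 after the start, at chr9:78230419-78230698 (+), chr9:78256879-78257158 (+), chr9:78289678-78289957 (+) and chr9:78347116-78347395 (-) in the order given, and capitals mark GCGTG.
Gsta1: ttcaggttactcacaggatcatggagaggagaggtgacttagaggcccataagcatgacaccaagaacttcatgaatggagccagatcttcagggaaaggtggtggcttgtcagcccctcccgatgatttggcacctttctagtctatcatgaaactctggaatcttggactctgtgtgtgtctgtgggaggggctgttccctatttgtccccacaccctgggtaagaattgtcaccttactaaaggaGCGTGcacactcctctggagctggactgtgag
Gm3776: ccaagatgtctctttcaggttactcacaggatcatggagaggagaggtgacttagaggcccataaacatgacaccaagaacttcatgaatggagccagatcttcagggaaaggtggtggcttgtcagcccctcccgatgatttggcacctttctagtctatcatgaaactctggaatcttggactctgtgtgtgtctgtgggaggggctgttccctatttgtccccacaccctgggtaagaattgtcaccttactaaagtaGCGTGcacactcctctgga
Gm10639: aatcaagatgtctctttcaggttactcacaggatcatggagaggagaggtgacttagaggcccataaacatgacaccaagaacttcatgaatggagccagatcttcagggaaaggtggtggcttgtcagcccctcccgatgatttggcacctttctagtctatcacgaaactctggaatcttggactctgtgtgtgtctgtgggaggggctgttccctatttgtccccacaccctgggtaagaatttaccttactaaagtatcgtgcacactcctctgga
Gsta2: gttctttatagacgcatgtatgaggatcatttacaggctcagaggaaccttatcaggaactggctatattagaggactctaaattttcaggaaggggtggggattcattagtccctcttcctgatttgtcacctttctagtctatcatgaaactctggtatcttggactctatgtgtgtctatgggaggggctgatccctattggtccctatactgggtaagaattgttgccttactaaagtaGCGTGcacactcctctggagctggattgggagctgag
GCGTG lay at or near the start in *Gsta1*, *Gm3776* and *Gsta2*, and was not matched in *Gm10639*. Of the other genes, *Gstm1* and *Gstp1* held GCGTG as well. TGACNNNGC was matched only in *Gsta3*, as TGACATTGC on the plus strand from position -121, and TGANTCA only in *Gstp1*, as TGAGTCA from position -74, and in *Gstp2*, from position -89. TGANTCA reads the same on both strands, so each of these counts as 1 match, and no match overlapped one of another motif. The windows of *Gstm2*, *Gstm3*, *Gstt1* and *Gstt3* held none of the 3. These matches are descriptions of letters, not of bound sites. Bases outside the windows were not searched, so a gene without a match here may hold one further away.

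*Gsta3*, the main alpha-class transcript and the enzyme known to detoxify the aflatoxin epoxide in mice, went the other way. It measured 955, 1231 and 512.5 TPM in WT vehicle, 360.1, 734 and 385 TPM in WT APAP, 882, 731 and 711.5 TPM in KO vehicle and 736, 635 and 615 TPM in KO APAP. In TPM the ranges of vehicle and APAP livers overlapped under both labels. The log2 fold change over all 12 livers was -0.64 ± 0.205 (adjusted p = 0.0376), and it was -0.81 ± 0.367 in WT (adjusted p = 0.303) and -0.44 ± 0.143 under the KO label (adjusted p = 0.0574). The call over all 12 livers was made in 2 of the 12 fits that left out 1 liver, those without WT APAP 2 or WT vehicle 3, and the adjusted p over the 12 fits ran from 0.0151 to 0.0836. *Gsta4*, which is best known for conjugating the lipid peroxidation product hydroxynonenal, measured 23.0 to 38.6 TPM with vehicle and 25.0 to 68.9 TPM after APAP. WT APAP 1 and KO APAP 3 were its highest livers, and the log2 fold change over all 12 livers was 0.50 ± 0.275 (adjusted p = 0.212), which fell to 0.15 without WT APAP 1.

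The mu-class genes lie together on chromosome 3, *Gstm1* at chr3:108012250-108017973, *Gstm2* at chr3:107981702-107986420 and *Gstm3* at chr3:107963696-107969174. None of the 3 passed the test in any comparison. *Gstm1*, the main mu transcript, ranged from 551 to 891 TPM with vehicle and from 603 to 1079 TPM after APAP, with a log2 fold change of 0.23 ± 0.135 over all 12 livers (adjusted p = 0.232) and a 95% interval of -0.06 to 0.53. *Gstm2* ranged from 28.9 to 55.5 TPM with vehicle and from 13.1 to 46.7 TPM after APAP, a log2 fold change of -0.43 ± 0.220 (adjusted p = 0.177). *Gstm3* ranged from 10.4 to 26.0 TPM and from 14.6 to 45.7 TPM. Its log2 fold change of 0.69 ± 0.245 lay just outside the threshold (adjusted p = 0.0560), and it passed with DESeq2 (adjusted p = 0.0261) and without WT vehicle 2 (log2 fold change 0.90, adjusted p = 0.0118). The ratio of *Gstm2* to *Gstm1* counts was 0.0409 ± 0.00407 in WT vehicle and 0.0248 ± 0.00837 in WT APAP.

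*Gstp1* (chr19:4035411-4037912) measured 2672, 2456 and 1500 TPM in WT vehicle and 3661, 3110 and 2993 TPM in WT APAP. In KO vehicle it measured 1554, 2781 and 3067 TPM, and in KO APAP 2847, 2639 and 2658 TPM. In WT every APAP liver lay above every vehicle liver in TPM, while under the KO label the APAP livers lay inside the vehicle range. In scaled counts the WT groups overlapped, with WT APAP 2 at 1253 CPM and WT vehicle 2 at 1255 CPM. The log2 fold change in scaled counts was 0.78 ± 0.375 in WT (adjusted p = 0.330), -0.14 ± 0.329 under the KO label (adjusted p = 0.791) and 0.31 ± 0.293 over all 12 livers (adjusted p = 0.485). Without WT APAP 1 the WT value was 0.31. *Gstp2*, with which it shares reads, held 0.136 to 0.145 of the *Gstp1* count on average in each group, and its own log2 fold change over all 12 livers was 0.35 ± 0.308 (adjusted p = 0.442).

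Among the theta genes, which lie side by side on chromosome 10 (*Gstt1* at chr10:75783813-75798584 and *Gstt3* at chr10:75774117-75781422), *Gstt3* was lower after APAP. It measured 20.7, 22.3 and 20.9 TPM in WT vehicle and 8.44, 11.4 and 10.6 TPM in WT APAP, with no overlap. Under the KO label it measured 32.6, 21.5 and 11.9 TPM with vehicle and 10.98, 19.0 and 23.8 TPM after APAP, and the groups overlapped. The log2 fold change was -0.95 ± 0.195 in WT, just outside the threshold with edgeR (adjusted p = 0.0572) and past it with DESeq2 (adjusted p = 0.00159) and without WT APAP 1 (log2 fold change -1.12, adjusted p = 0.0344). It was -0.42 ± 0.311 under the KO label (adjusted p = 0.364) and -0.70 ± 0.210 over all 12 livers (adjusted p = 0.0279). The last call was made in 7 of 12 fits that left out 1 liver and was lost without KO APAP 1, KO vehicle 1, WT APAP 2, WT APAP 3 or WT vehicle 3, with an adjusted p of 0.0529 to 0.0709. *Gstt1* ranged from 110.8 to 172 TPM with vehicle and from 114.9 to 168 TPM after APAP, and its log2 fold change was -0.14 ± 0.148 (adjusted p = 0.538).

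Counted by comparison, 1 of 10 genes rose and 0 fell with APAP in WT (*Gsta1*), where 2.05% of 15693 genes tested were called. Under the KO label 2 of 10 rose and 0 fell (*Gsta1* and *Gsta2*), against 22.6% of 15665 genes. Over all 12 livers, with the genotype label in the model, 2 rose and 2 fell (*Gsta1* and *Gsta2*, and *Gsta3* and *Gstt3*), against 25.4% of 16509 genes. Set against these shares, 2 of 10 under the KO label is close to the share over all genes, and 4 of 10 over all 12 livers is not far above it. The median log2 fold change of the 10 over all 12 livers was 0.27, against 0.0092 over all genes. Without WT APAP 1 the counts were 2 in WT (*Gsta1* and *Gstt3*) and 4 over all livers, with *Gstm3* (adjusted p = 0.0469) in and *Gsta3* (adjusted p = 0.0538) out. The count over all 12 livers was 2 without KO APAP 1 or WT APAP 3.

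**Figure D4:**
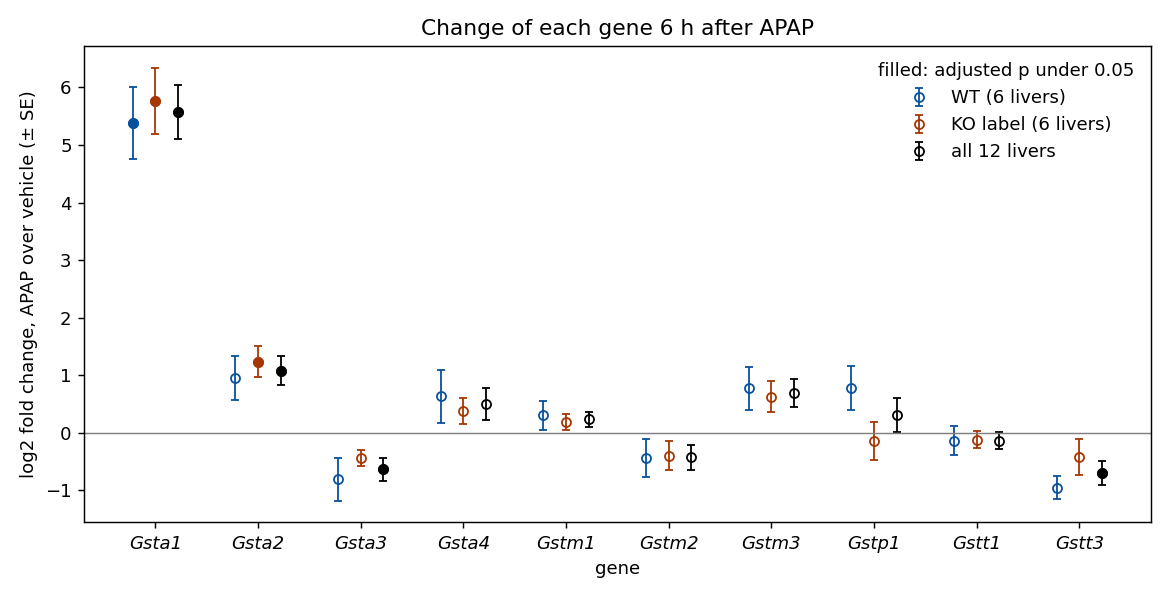
Log2 fold change of each gene, APAP over vehicle, in WT, under the KO label and over all 12 livers. The SE was derived from the F statistic of edgeR's quasi-likelihood test. Filled points have an adjusted p under 0.05. *Gsta1* stands between 5.39 and 5.77 in the 3 fits, and all other values lie between -0.95 and 1.23.

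The question whether the genotype label changed these levels was put with vehicle, after APAP and as an interaction. With vehicle 0 of 10 genes passed edgeR's quasi-likelihood test, 0 had an unadjusted p under 0.05, and 0.0262% of 15262 genes were called. After APAP 0 of 10 passed, and 0.0309% of 16174 genes were called. For the interaction 0 of 10 passed, and 0% of 16509 genes were called, with 848 genes, 0 of them among the 10, at an unadjusted p under 0.05, and 9 genes called by DESeq2. DESeq2 called 0 of the 10 in each of these comparisons as well. Of the 10, *Gstp1* after APAP was the only gene with an unadjusted p under 0.05. Its WT livers at 2993 to 3661 TPM lay above its KO-label livers at 2639 to 2847 TPM, and the log2 difference, KO label minus WT, was -0.76 ± 0.323 (adjusted p = 0.958, edgeR's quasi-likelihood test). That difference was -0.29 without WT APAP 1 and -0.25 on quantile-normalized log2(TPM + 1) with limma, and its interaction was -0.92 ± 0.541 (adjusted p = 0.872). For *Gsta1* the log2 difference after APAP was 0.15 ± 0.612, with a 95% interval of -1.25 to 1.56, and it was -0.71 without KO APAP 3 and 0.86 without WT APAP 1. For *Gsta2* the interval after APAP was -0.80 to 0.78. With vehicle, the 10 log2 differences ran from -0.29 to 0.17. The widths of the intervals differed between genes, and with 3 livers a group differences between the labels inside each interval are not excluded. The size of difference that could have been detected was not computed.

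**Figure D5:**
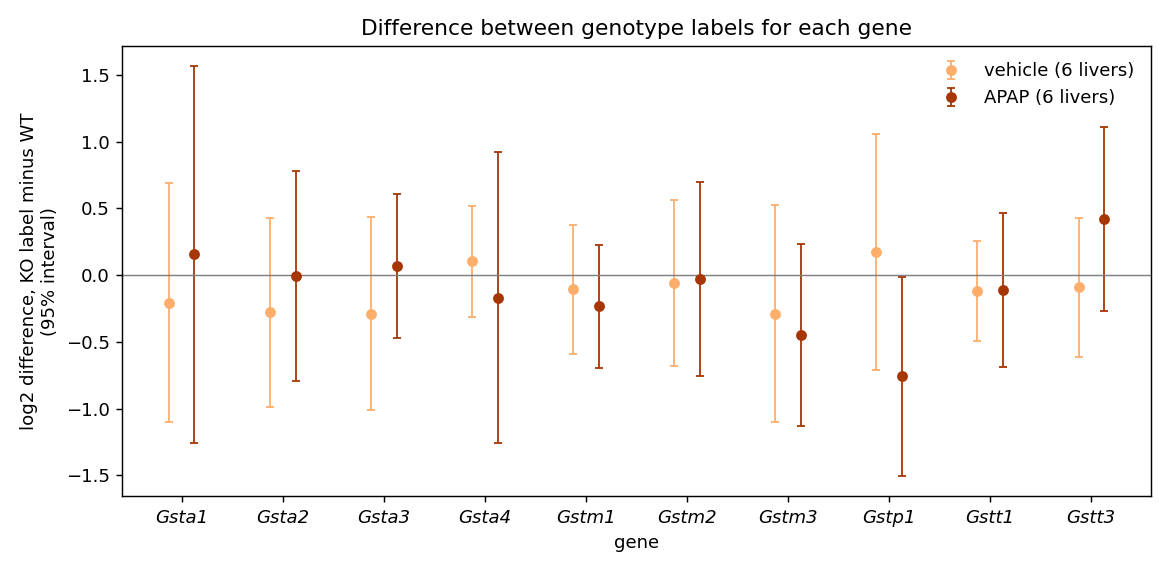
Log2 difference of each gene, KO label minus WT, with its 95% interval, in vehicle livers and in APAP livers. The only interval that leaves out 0 is that of *Gstp1* after APAP, at -0.76, and it did not pass after adjustment.

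Within groups, *Gsta1* and *Gsta4* both varied widely in the APAP livers. Deviations were taken in log2 CPM after TMM scaling. The log2 deviation of *Gsta1* from the mean of its own group was 1.23 in KO APAP 3 and 1.00 in WT APAP 1, against -0.83 in KO APAP 2 and -0.79 in WT APAP 2. *Gsta4* deviated by 1.08 in WT APAP 1, -0.70 in WT APAP 3 and 0.54 in KO APAP 3. *Gsta2* deviated in the same direction in KO APAP 3 and WT APAP 1, by 0.57 and 0.59. When the deviations of the 10 genes were scaled and averaged, WT vehicle 2 was highest at 1.25 and WT vehicle 3 lowest at -0.94. On that average WT APAP 1 was at 0.85 and WT APAP 3 at -0.84, while the KO-label livers lay between -0.38 and 0.32. The genes whose deviations followed that average most closely over the 12 livers, of 3352 with a mean log2 CPM of at least 5, were *Bach1* (r = 0.96), *Ambp* (r = 0.92), *Fermt2* (r = 0.91), *Kng2* (r = 0.91) and *Tmem176b* (r = 0.90). *Bach1* encodes a repressor that competes with NRF2 at antioxidant response elements. These r values weigh the WT livers with large deviations most. They describe likeness in shared libraries and were not tested.

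The other transferase genes were given by a list of 21, of which 19 were in the table and 16 were tested. Over all 12 livers 2 rose, the *Gm3776* and *Gm10639* described above, and 2 fell, and this share of the 16 is close to the 25.4% of all genes called. *Gstz1*, which acts in tyrosine breakdown, fell by 0.42 ± 0.104 on the log2 scale (adjusted p = 0.0103). *Gstt2*, another theta-class gene, fell by 0.79 ± 0.221 (adjusted p = 0.0195). The median log2 fold change of the 16 was -0.05.

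Of 14 genes of glutathione synthesis, recycling and transport, 8 rose and 1 fell over all 12 livers, and the median of the 14 was 0.52 on the log2 scale. *Gclc*, the catalytic subunit of the enzyme that limits glutathione synthesis, rose 8.52-fold (log2 3.09 ± 0.156, adjusted p = 1.45e-07). *Slc7a11*, the cystine importer, had 0 to 4 counts per library with vehicle and 73 to 461 after APAP (adjusted p = 1.2e-05). No fitted fold is given for it, since WT vehicle libraries held 0 counts, and the median of the list stays at 0.52 with *Slc7a11* at its lower bound. *Slc3a2*, its partner chain, rose 2.79-fold, and *Gsr*, which regenerates reduced glutathione, rose 1.94-fold. Of 14 tested genes of the mercapturate pathway and of conjugate efflux, 2 rose and 4 fell, with a median of -0.24. *Acy3*, *Anpep* and *Ggt6*, hydrolases and a transpeptidase that act on conjugates or peptides after the transferase step, had log2 fold changes of -0.68, -0.54 and -1.10. *Abcc1*, an exporter of glutathione conjugates, rose 1.96-fold (adjusted p = 0.0334).

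Among 14 genes that regulate transferase transcription, 4 rose and 4 fell. *Mafk* and *Maff*, small Maf proteins that pair with NRF2, rose 3.95-fold and 14.05-fold, and *Bach1* rose 1.99-fold. *Mafg*, another small Maf of the list and more abundant with vehicle, went the other way. Its mean went from 140.2 to 95.8 CPM in WT and from 142.4 to 104.7 CPM under the KO label. The nuclear receptors *Nr1i3* and *Ppara*, which act in xenobiotic and lipid metabolism, had log2 fold changes of -1.18 and -1.198. Of 16 other NRF2 targets, 12 rose and 0 fell, with a median log2 fold change of 1.47. *Srxn1*, which repairs oxidized peroxiredoxins, rose 20.3-fold, *Hmox1*, the inducible heme oxygenase, 41.5-fold, *Pgd*, of the pentose phosphate pathway, 3.85-fold, and *Ugdh*, which supplies glucuronic acid, 2.81-fold. *Gsta1* at 47.4-fold lay beside *Hmox1*, but its size rests on the uncertain division of reads among the like alpha genes. *Gstm1*, *Gstm2* and *Gsta4* did not pass. By contrast, 9 of 14 pericentral hepatocyte genes fell and 1 rose, with a median of -0.98. *Cyp2e1*, the cytochrome that forms the reactive APAP metabolite, fell by 1.06 on the log2 scale. The glutamine synthetase gene *Glul* fell by 2.25, *Oat* fell by 1.52 and *Slc1a2* fell by 3.31. Of 10 periportal genes 3 fell and 1 rose, with a median of -0.28. *Pck1*, of gluconeogenesis, fell by 1.31, *Hal* fell by 0.63 and *Gls2* fell by 0.56, and *Sdsl* rose by 0.61. The counts of all these lists are to be read against the same 25.4%. In the comparisons between the labels, 0 genes of any of these lists were called. There the shares over all genes were 0.0309% after APAP, 0.0262% with vehicle and 0% for the interaction, so 0 is close to those shares.

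Markers of other liver cells were measured in the same livers, and the genes named here were chosen after their values were seen. The 8 cholangiocyte markers, none at 0 in every library, summed to 12.4 to 20.7 CPM in WT vehicle, 28.6 to 74.6 CPM in WT APAP, 17.3 to 27.0 CPM in KO vehicle and 29.7 to 36.9 CPM in KO APAP. Of the 6 tested, 2 rose over all 12 livers, *Sox9* (log2 fold change 3.20, adjusted p = 2.59e-05) and *Epcam* (0.82, adjusted p = 0.0209), and most of the rise of the sum was that of *Sox9*, from a mean of 3.54 to 27.4 CPM in WT and from 1.80 to 19.7 CPM under the KO label. *Spp1*, another of the 8, went from 17.5 to 10.6 CPM under the KO label and did not pass (adjusted p = 0.0611). The 6 tested neutrophil markers had a median log2 fold change of 2.74, with 1 called higher (*Cxcr2*), and WT APAP 1 held the highest sum, as given above. Of 8 sinusoidal endothelial markers, *Lyve1* was called higher over all 12 livers and 0 were called lower, while under the KO label *Lyve1* was called higher and *Kdr*, *Dnase1l3* and *Oit3* lower. Of 8 stellate cell markers, *Hgf* was called higher and *Lrat* lower over all 12 livers, and under the KO label *Lrat* and *Col3a1* were called lower and 0 higher. The 8 Kupffer cell markers summed to 107.5 to 252.6 CPM with vehicle and 89.3 to 223.7 CPM after APAP, and 0 of 8 were called. Over all 12 livers, 0 of 7 tested erythroid and 0 of 7 hepatocyte markers were called. The marker counts are to be read against the shares of all genes called, 25.4% over all 12 livers and 22.6% under the KO label. The part of these cells in the changes of the transferase genes was not tested.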

How the data were processed

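Liver RNA from 12 mice was sequenced as stranded poly-A libraries with paired-end reads of 100 bases. The submitters' processing notes name FastQC 0.11.7, Trimmomatic 0.38, HISAT2 2.1.0, Bowtie2 2.3.4.1 and StringTie 2.1.3b and mm10 (GRCm38), and the counting step is not given in the sources used here. The authors deposited read counts per gene without normalization, FPKM values scaled by length and depth (not used here), and TPM values scaled to a common sum. Groups came from the labels of each sample. After filterByExpr (minimum count 10) and TMM scaling, counts entered edgeR's quasi-likelihood test (edgeR 4.0.16, R 4.3.3). P-values were adjusted by Benjamini-Hochberg across every gene that passed the filter, and calls were made below 0.05. Comparisons within a label or treatment used 6 livers, and the others used 12. TPM values are printed as deposited by the authors, and CPM values follow TMM scaling. Each SE printed with an edgeR value is its absolute log2 fold change divided by the square root of the test's F statistic. Intervals are 95%, from that SE and the t distribution with the degrees of freedom of the fit. Each library is a separate liver by its label, and p-values measure only the spread between these livers. DESeq2 1.42.0 and limma 3.58.1 on quantile-normalized log2 of the deposited TPM values, other filters, a replicate block and summed counts of like genes were alternatives, and the sum over 4 alpha genes was added after seeing the data. The fit was tested on simulated data. The genes named were the 10 transferase genes, genes sharing their reads, *Gna12*, at most 4 of each list with the smallest p over all 12 livers, and the 5 genes most like the members. *Mafg* was named in addition, after its values were seen. The members, lists and tests were chosen with earlier results of these data known. Coding sequences were aligned with Biopython 1.88.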

Additional observations from a re-analysis of the deposited data

How the results depend on the processing

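With 3 livers a group, the number of livers limits these values, and a fit that leaves out 1 liver has an arm of 2. The number of the 10 genes called with APAP in WT, 1 as reported, was 2 with DESeq2's Wald test and 2 with limma on quantile-normalized log2(TPM + 1), and it ran from 0 to 2 over the fits without 1 liver (0 without WT vehicle 1 or WT vehicle 3, 2 without WT APAP 1). Under the KO label, 2 as reported, it was 3 with DESeq2 and with limma on log2(TPM + 1), with *Gsta3* added, and it ran from 1 (without KO vehicle 2) to 3 (without KO APAP 3), and over all 12 livers, 4 as reported, it was 5 with DESeq2 and with at least 10 counts in every sample, with *Gstm3* added, and ran from 2 (without KO APAP 1 or WT APAP 3) to 4 over the fits without 1 liver. It stayed at 0 between the labels and for the interaction under every alternative run. Over all genes the number called between the labels was 29 after APAP and 137 with vehicle with DESeq2 (5 and 4 as reported), and 9 for the interaction (0 as reported). With all 12 livers in 1 fit it was 0 after APAP and 0 with vehicle. With APAP in WT, 322 genes as reported, it was 1413 with DESeq2, 1523 with all 12 livers in 1 fit, 68 without WT APAP 3, 43 without WT vehicle 1 and 41 without WT vehicle 3. Under the KO label, 3538 as reported, it was 2249 with all 12 livers in 1 fit, 2071 without KO APAP 3 and 1995 without KO vehicle 2. The cause of these differences was not tested.

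Same-numbered livers did not deviate together (r of -0.26 to 0.049), so the numbers do not pair the samples. With the replicate number as a replicate block, 1 of the 10 genes was called with APAP in WT, 2 under the KO label, 4 over all 12 livers (*Gstm3* in, adjusted p = 0.0337, and *Gstt3* out, adjusted p = 0.0532) and 0 in the other comparisons, and over all genes 62, 2761 and 3532 were called with APAP. Under the block the log2 value of *Gsta2* between labels after APAP was 0.0077, *Gsta4* between labels after APAP was 0.020, *Gstm2* for the interaction was -0.051, each with a changed sign.

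Other changes of sign concerned only values that were not called. With all 12 livers in 1 fit, *Gsta2* between labels after APAP was 0.011. On quantile-normalized log2(TPM + 1) and log2(TPM + 0.1), log2 values were 0.074 and 0.074 for *Gstp1* (APAP under the KO label); 0.14 and 0.15 for *Gsta2*, 0.12 and 0.13 for *Gsta4*, 0.046 and 0.046 for *Gstm1*, 0.013 and 0.014 for *Gstm2*, 0.094 and 0.095 for *Gstt1* (between labels after APAP); 0.041 and 0.041 for *Gstm1*, 0.020 and 0.021 for *Gstm2* (between labels with vehicle); 0.016 and 0.016 for *Gstm1*, -0.0043 and -0.0032 for *Gstm2* (the interaction).

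Over the fits without 1 liver, values that changed sign ran from -0.15 to 0.95 for *Gsta4*, -0.42 to 0.0020 for *Gstt1* (APAP in WT); from -0.44 to 0.23 for *Gstp1*, -0.20 to 0.013 for *Gstt1* (APAP under the KO label); from -0.71 to 0.86 for *Gsta1*, -0.33 to 0.37 for *Gsta2*, -0.13 to 0.22 for *Gsta3*, -0.49 to 0.62 for *Gsta4*, -0.34 to 0.33 for *Gstm2*, -0.26 to 0.17 for *Gstt1* (between labels after APAP); from -0.53 to 0.20 for *Gsta1*, -0.52 to 0.098 for *Gsta2*, -0.56 to 0.10 for *Gsta3*, -0.026 to 0.29 for *Gsta4*, -0.24 to 0.13 for *Gstm1*, -0.25 to 0.27 for *Gstm2*, -0.54 to 0.23 for *Gstm3*, -0.19 to 0.49 for *Gstp1*, -0.26 to 0.0092 for *Gstt1*, -0.33 to 0.11 for *Gstt3* (between labels with vehicle); from -0.51 to 1.09 for *Gsta1*, -0.078 to 0.67 for *Gsta2*, -0.01 to 0.64 for *Gsta3*, -0.58 to 0.53 for *Gsta4*, -0.35 to 0.024 for *Gstm1*, -0.28 to 0.38 for *Gstm2*, -0.65 to 0.10 for *Gstm3*, -0.12 to 0.31 for *Gstt1* (the interaction).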
